A study of Rattus norvegicus with 16 samples.

Results

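The mir-29 family of the rat was followed through 16 small RNA libraries. It was taken as the reads of the hairpins rno-mir-29a, rno-mir-29b-1, rno-mir-29b-2 and rno-mir-29c, which are 4 of the 392 hairpins and 8 of the 712 hairpin arms in the data. The family was chosen by the reads of mir-29a-3p in brain, where this arm had more reads than any other, so levels in brain are given as a description and without a test. The tissues were kidney, testis, heart, spleen, liver and whole brain of adult males of 2 inbred strains, BN-Lx (polydactyly-luxate syndrome brown Norway) and SHR (spontaneously hypertensive rat), taken from 1 rat per strain with 1 library for each tissue. Further livers, 2 per strain, brought the livers to 3 per strain. No animal was treated. All libraries were made from frozen whole tissue, so a value is an average over all cell types of the organ, and fewer cells of a type and less RNA per cell cannot be told apart.

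Members of the mir-29 family are microRNAs of vertebrates with one shared seed, the bases near the 5′ end through which a microRNA pairs with its target messenger RNAs. Their best known targets are messenger RNAs of extracellular matrix proteins, among them collagens, elastin and fibrillin, and the family is widely described as restraining fibrosis in heart, kidney and liver. In brain it is known to accumulate as neurons and astrocytes mature. Each hairpin is cut into a 5p and a 3p arm, and in this family the 3p arm carries the shared seed and is the one usually loaded into Argonaute.

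The mature 3p arms are shown first because their differences decide which reads can be assigned to which member. Capitals mark the seed, bases 2 to 8 counted from the 5′ end, and the sequences are those of RefSeq on assembly GRCr8, in which all 4 hairpins were found.
mir-29a-3p: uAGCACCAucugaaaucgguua
mir-29b-3p: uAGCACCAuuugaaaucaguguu
mir-29c-3p: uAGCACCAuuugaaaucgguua
Counted from the 5′ end, mir-29c-3p differs from mir-29a-3p by C10U alone among the 22 positions compared. From mir-29a-3p to mir-29b-3p there are 4 substitutions, C10U, G18A, U21G and A22U. The seed is held by 4 of the 724 mature rat records of RefSeq, which are the 3p arms of these 4 hairpins. The most frequent read of mir-29a-3p and of mir-29c-3p in the data was identical to the RefSeq sequence, and that of mir-29b-3p was 1 base shorter at the 3′ end.

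The hairpins lie in pairs on 2 chromosomes. On chromosome 4 of GRCr8, mir-29a (chr4:60617955-60618042, minus strand) and mir-29b-1 (chr4:60618334-60618414, minus strand) are separated by 291 bases. On chromosome 13, mir-29b-2 (chr13:109098831-109098911, plus strand) and mir-29c (chr13:109099359-109099446, plus strand) are separated by 447 bases, and both lie inside the annotated long noncoding RNA LOC102550527. The annotation places Mir3556a over mir-29a, Mir3587 over mir-29b-1 and Mir3556b over mir-29c. Hairpins on the opposite strand of mir-29a, mir-29b-1 and mir-29c held 1, 1 and 2 reads in all libraries together, each at or under the 3 reads that a count of 0 allows.

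The family held 712125 of the 15196294 hairpin reads. The libraries of the six-tissue set other than testis held 403453 to 1064894 reads, those of testis 26880 (BN-Lx) and 29131 (SHR), and those of the further livers 1167607 to 3229461. Because a read that fits several hairpins was divided between them, the values are estimated counts. Of 7 lists of cell type markers, 6 were highest in the tissue they mark, mir-122-5p in liver among them. The list for epithelia and kidney reached 148357 RPM (reads scaled to the total hairpin reads of a library) outside kidney, in liver, against 84141 and 100985 in kidney. The further livers stood apart from the six-tissue livers in the family, as described below, and they also hold reads of 15 and 16 nt (0.133% to 0.278% of reads) that the six-tissue set lacks. Intervals given below are exact binomial (Clopper-Pearson) at 95% and cover counting error alone.

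In brain, mir-29a-3p had 118197 reads in BN-Lx, 11.1% of the library, and 109941 reads in SHR, 12.8% of the library. Just below it stood mir-125a-5p with 45954 reads in BN-Lx and mir-29c-3p with 42318.7 reads in SHR. With mir-29c-3p at rank 3 in BN-Lx brain and rank 2 in SHR brain, the 3p arms of the family together made 17.7% and 20.8% of the brain libraries. In the 10 other libraries of the six-tissue set that share lay between 5.14% (SHR spleen) and 8.22% (BN-Lx kidney), and mir-29a-3p ranked between 3 and 8 among all arms.

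Levels were compared after division by the outlier-corrected mean, which is the mean reads of the known arms of a library after removal of its 3 highest arms. The arms removed differ between libraries. In brain they included mir-29a-3p and mir-29c-3p, and in BN-Lx kidney and SHR testis mir-29a-3p. What this does to the levels was not tested. On that scale mir-29a-3p stood at 82.7 in BN-Lx and 96.9 in SHR brain. The next tissue by mean was liver (47.8 and 45.6), followed by spleen (53.5 and 35.8), testis (38.9 and 34.5), heart (30.8 and 41.6) and kidney (39.4 and 26.2). Below brain, every pair of neighbours in this order overlapped between the strains. The mean in brain was 1.92 times that in liver. By strain, brain stood at 1.55 times the next tissue in BN-Lx (spleen) and at 2.12 times in SHR (liver). The study's rule for tissue-specific arms was a 5-fold difference over any other tissue in each strain, which is far from these values.

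**Figure D1:**
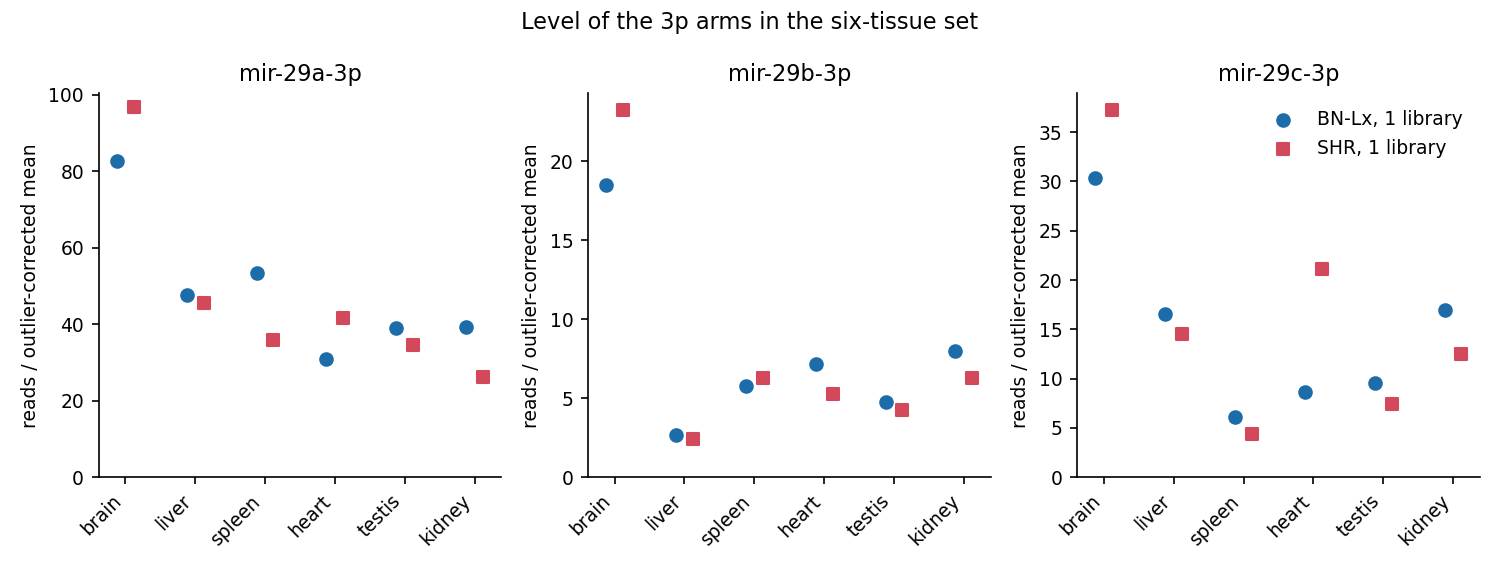
Level of mir-29a-3p, mir-29b-3p (both hairpins summed) and mir-29c-3p, as reads over the outlier-corrected mean (y axis, linear from 0), in the 6 tissues of BN-Lx (circles) and SHR (squares), 1 library each. On this scale brain is highest for all 3 arms, liver is lowest for mir-29b-3p (2.64 and 2.44) and spleen for mir-29c-3p (6.06 and 4.34).

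The other 3p arms were highest in brain as well but ordered the remaining tissues in another way. For mir-29c-3p the level in brain was 30.4 in BN-Lx and 37.3 in SHR. Liver (16.6 and 14.5), heart (8.68 and 21.2) and kidney (16.9 and 12.5) overlapped below it, and testis (9.57 and 7.40) and spleen (6.06 and 4.34) each stood apart from the tissue above. The heart libraries differed most, with SHR heart above BN-Lx heart by 1.29 on the log2 scale.

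For mir-29b-3p, summed over both hairpins, brain stood at 18.5 and 23.3. Kidney (7.98 and 6.25), heart (7.14 and 5.24) and spleen (5.80 and 6.25) overlapped, testis (4.77 and 4.25) stood apart from spleen, and liver (2.64 and 2.44) was lowest and apart from testis. Liver was thus second in the order for mir-29a-3p and mir-29c-3p and last for mir-29b-3p on this scale. By RPM liver was last for mir-29a-3p (40339 and 38679) and at rank 4 for mir-29c-3p (14010 and 12330), so the place of liver turned with the scale for these arms and stayed last for mir-29b-3p (2233 and 2072). The mean in brain was 2.93 times that of the next tissue for mir-29b-3p and 2.17 times for mir-29c-3p. The size of the brain excess depended on the scale, because with TMM (trimmed mean of M-values) scaling it shrank to 1.15 for mir-29a-3p, 1.34 for mir-29c-3p and 2.00 for mir-29b-3p. With TMM scaling brain was not the highest tissue in every strain. For mir-29a-3p BN-Lx spleen stood at 96955 TMM-scaled RPM against 78531 in BN-Lx brain, and for mir-29c-3p SHR heart stood at 32812 against 32412 in SHR brain.

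Outside brain, each tissue was compared with the mean of the 4 other tissues in edgeR over 10 libraries, with the strains as the replicates and adjusted p-values over the 373 arms tested. All 8 arms of the family passed the filter on low counts. In heart 2 of the 8 arms were called (higher), against 22.3% of all arms. In kidney 1 was called (higher) against 19.8%, in liver 2 (lower) against 19.6%, in spleen 0 against 26.8%, and in testis 5 (lower) against 34.3%. In spleen 3 of the 8 arms had an unadjusted p under 0.05 in edgeR, as had 148 of the 373 arms tested. DESeq2 called 4 of the 8 there (2 higher and 2 lower), against 36.7% of all arms in DESeq2. Members are thus called at about the share of all arms in heart, kidney and liver.

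In testis, the least deeply sequenced tissue, the 3p arms fell. The log2 difference was −1.15 ± 0.27 (SE) for mir-29a-3p (adjusted p = 0.00973), −1.22 ± 0.30 for mir-29b-1-3p (adjusted p = 0.0138), −1.19 ± 0.30 for mir-29b-2-3p (adjusted p = 0.0144) and −1.500 ± 0.39 for mir-29c-3p (adjusted p = 0.0166). Both 29b values rest on the same divided reads. The median arm also stood at −0.58 in testis, and the difference from it was −0.57 for mir-29a-3p, −0.64 for mir-29b-1-3p and −0.92 for mir-29c-3p. With scaling to the outlier-corrected mean, the median arm moved to 0.43 and mir-29a-3p to −0.11, and the difference from the median arm was −0.54. With total reads the median arm moved to 0.55 and mir-29a-3p to 0.0057, that is, above 0. Under both of these scalings 1 member arm was called, against 152 and 150 of the 373 arms tested. The split of all called arms in testis went from 59 higher and 69 lower to 116 and 36 with the outlier-corrected mean. Without the SHR testis library no member arm was called, and without the BN-Lx testis library 1 was.

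The fifth arm called in testis, mir-29a-5p, had 0 reads in both testis libraries. At their depth, 0 reads allow a level of up to 0.0952 in BN-Lx and 0.0853 in SHR, above the levels in liver, heart and spleen (0.0350 to 0.0588), so a lower level than in those tissues was not detectable. The same arm was called higher in kidney (adjusted p = 0.0238), with levels of 0.0834 (58 reads) and 0.112 (93 reads) in the BN-Lx and SHR kidney. These lie above the liver, heart and spleen libraries, and no fold is given because the comparison includes the 0 of testis. Without the SHR kidney, the BN-Lx spleen or the SHR spleen library, no member arm was called in kidney.

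In liver of the six-tissue set the 29b 3p reads fell on the log2 scale. The fall was 0.98 ± 0.29 for mir-29b-1-3p (adjusted p = 0.0476 in edgeR) and 0.98 ± 0.29 for mir-29b-2-3p (adjusted p = 0.0457). Both values rest on the same divided reads and do not tell the hairpins apart. Among the 5p arms mir-29b-1-5p stood at 1.71 and mir-29b-2-5p at −0.76, and neither was called. The estimate for mir-29a-3p was 0.54 ± 0.24 (adjusted p = 0.148) and for mir-29c-3p 0.87 ± 0.33 (adjusted p = 0.109). Relative to the median arm, mir-29b-1-3p stood at −0.83, mir-29a-3p at 0.70 and mir-29c-3p at 1.02. The sign for mir-29a-3p turned to −0.18 with total reads, where the median arm stood at −0.83, and the difference from that median was then 0.65. Both 29b calls in liver were lost when any 1 of the 10 libraries was left out, with adjusted p-values from 0.0544 to 0.255 in edgeR. Without the SHR heart library mir-29c-3p was called higher in liver instead (1.01, adjusted p = 0.0280).

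In heart, mir-29b-1-3p rose by 0.83 ± 0.26 (adjusted p = 0.0497) and mir-29b-2-5p by 1.55 ± 0.41 (adjusted p = 0.0247) on the log2 scale, the latter from 56 and 130 reads. The arm mir-29b-2-3p, which rests on the same divided reads as mir-29b-1-3p, stood at 0.81 (adjusted p = 0.0525) and was not called. For mir-29c-3p the estimate was 1.02 ± 0.34 (adjusted p = 0.0589). For mir-29a-3p it was 0.32 (adjusted p = 0.391), and it turned to −0.11 with the outlier-corrected mean, to −0.062 with total reads and to −0.029 without the SHR heart library. Relative to the median arm it was 0.35, 0.36 and 0.35 under these scalings in turn, TMM first. No member arm was called in heart with the outlier-corrected mean or with total reads, or without the SHR heart or the SHR spleen library. The split of all called arms in heart went from 52 higher and 31 lower to 32 and 48 with the outlier-corrected mean.

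In spleen the lowest estimate of a 3p arm was that of mir-29c-3p, −1.05 ± 0.38 (adjusted p = 0.0688). The estimates for mir-29a-3p (0.50) and mir-29b-1-3p (0.60) were above 0 with adjusted p-values of 0.150 and 0.125. In kidney the estimates were −0.22 for mir-29a-3p, 0.77 for mir-29b-1-3p and 0.66 for mir-29c-3p, with adjusted p-values of 0.582, 0.0655 and 0.197.

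Other microRNAs with a textbook link to fibrosis or extracellular matrix were listed for comparison, 12 arms in all. Of these, 11 were called in heart (8 higher and 3 lower, against 22.3% of all arms), 7 in kidney (6 and 1, against 19.8%), 5 in liver (3 and 2, against 19.6%), 3 in spleen (1 and 2, against 26.8%) and 8 in testis (0 and 8, against 34.3%). With total reads the split was 4 higher and 3 lower in heart, 2 and 6 in liver, and 1 and 3 in testis. Many mark one cell type. The muscle microRNA mir-133a-3p was higher in heart by 7.31 ± 0.36 (adjusted p = 1.36e-06), the epithelial mir-200b-3p was higher in kidney by 7.10 ± 0.54 (adjusted p = 3.95e-05), and mir-21-5p, known from fibrosis and from leukocytes, was higher in spleen by 2.76 ± 0.19 (adjusted p = 1.26e-05), all on the log2 scale. The 3p arms of mir-29 all had smaller differences than these in the 5 tissues, of which the mir-29c-3p value in testis was the farthest from 0. The median of the list was 1.27 in heart, 0.77 in kidney, −0.54 in liver, −0.20 in spleen and −1.52 in testis. The median of the 8 mir-29 arms was 0.93, 1.02, 0.21, 0.55 and −1.36, and that of all arms −0.03, 0.32, −0.16, 0.16 and −0.58, in the same order of tissues. These medians moved with the scaling. With total reads the median of the mir-29 arms was 0.54, 1.24, −0.51, 0.32 and −0.21, that of the list 0.88, 0.95, −1.27, −0.42 and −0.38, and that of all arms −0.41, 0.52, −0.83, −0.063 and 0.55. With the outlier-corrected mean the median of the mir-29 arms in testis was −0.32.

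Composition of the family does not depend on the scaling of a library. In every library of the six-tissue set mir-29a-3p was the largest part of the 3p reads, from 58.3% (SHR kidney, interval 57.8 to 58.8) to 81.8% (BN-Lx spleen, 81.5 to 82.2). The part of mir-29c-3p ran from 9.28% (BN-Lx spleen, 9.04 to 9.52) to 31.1% (SHR heart, 30.7 to 31.5), and that of mir-29b-3p from 3.90% (SHR liver, 3.67 to 4.14) to 15.3% (BN-Lx heart, 14.8 to 15.8). Brain was close between the strains, with 62.9% and 61.5% mir-29a-3p, 14.1% and 14.8% mir-29b-3p, and 23.1% and 23.7% mir-29c-3p. Its composition lay within the range of the other tissues for all 3 arms.

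Spleen and the livers of the six-tissue set stood apart in composition in both strains. In spleen, mir-29c-3p made 9.28% (BN-Lx) and 9.36% (SHR) of the family, below every other library of the set. In liver, mir-29b-3p made 3.95% and 3.90%, below every other library of the set. The 4 further livers did not share this low part, with 12.3% and 42.9% in those of BN-Lx, and in those of SHR 24.7% and 51.6%. Heart was the tissue in which the rats differed most, with 18.6% mir-29c-3p and 15.3% mir-29b-3p in BN-Lx against 31.1% and 7.70% in SHR, beyond counting error. With 1 heart per strain, that difference cannot be told apart from one between rats or libraries.

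**Figure D2:**
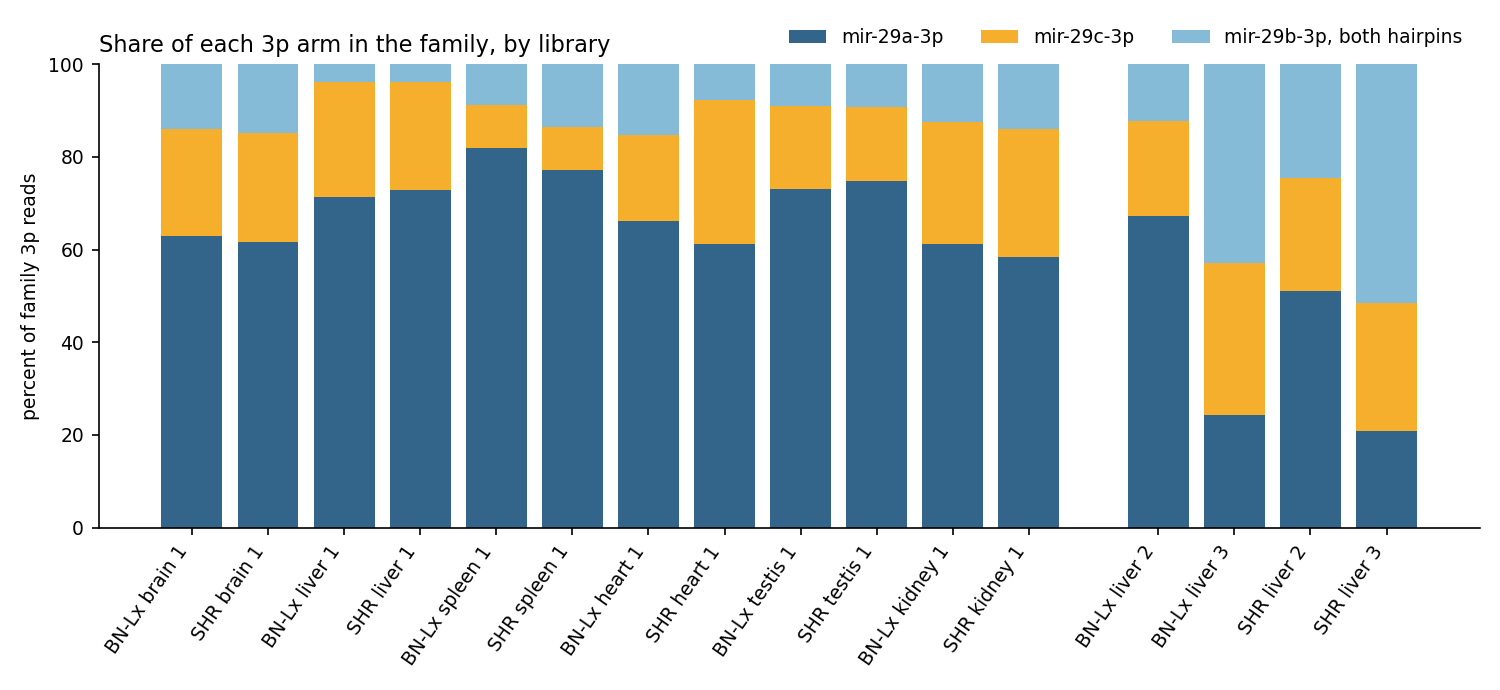
Share of mir-29a-3p, mir-29c-3p and mir-29b-3p (both hairpins) in the 3p reads of the family (y axis, percent, from 0 to 100), one stacked bar per library, with the 12 libraries of the six-tissue set on the left and the 4 further livers on the right. In the six-tissue set mir-29a-3p is the largest part throughout, and in liver 3 of each strain it falls to 24.2% and 20.8%.

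The mature 29b sequence is the same for both hairpins, so the reads of mir-29b-3p mostly do not tell them apart. At matching positions on both hairpins, 95.3% to 98.8% of the 29b 3p reads of a library were listed with equal counts (to within 1e-06 reads), which shows how the reads were divided and not how much each hairpin made. Reads that extend to 24 nt do differ, at the last base, shown here in capitals.
mir-29b-1, 24 nt: uagcaccauuugaaaucaguguuC
mir-29b-2, 24 nt: uagcaccauuugaaaucaguguuU
In the six-tissue set 516 such reads ended with the base of mir-29b-1 and 801 with that of mir-29b-2, so 60.8% carried the base of mir-29b-2, and its share was over 50% in 12 of 12 libraries. It was 56.8% (52.05 to 61.4) in BN-Lx brain and 56.5% (51.2 to 61.8) in SHR brain. The interval took in 50% in BN-Lx heart (40.2 to 63.7), in SHR heart (49.5 to 71.2) and in the liver and testis libraries of the set. A U added after cutting would also be counted to mir-29b-2, and the reads do not tell these cases apart.

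The 5p arms differ in sequence and give a second view of the 29b hairpins. The most frequent read of each 5p arm is shown with bases 2 to 8 in capitals, because none of them carries the seed of the 3p arms.
mir-29a-5p: aCUGAUUUcuuuugguguucaga
mir-29b-1-5p: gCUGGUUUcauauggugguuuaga
mir-29b-2-5p: cUGGUUUCacaugguggcuuaga
mir-29c-5p: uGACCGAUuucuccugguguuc
Over the six-tissue set 146 reads of the 5p arm came from mir-29b-1 and 2004 from mir-29b-2, which is 93.2% from mir-29b-2. Its share was over 50% in 12 of 12 libraries, though BN-Lx and SHR testis held only 3 and 2 such reads. In BN-Lx brain there were 40 and 822 reads, and in SHR brain 31 and 662, so brain held most of these reads. Within the set the share of mir-29b-2 was lowest in BN-Lx liver (12 of 23 reads, 52.2%, interval 30.6 to 73.2). Spleen came next, with 60.8% (46.1 to 74.2) in BN-Lx and 64.9% (47.5 to 79.8) in SHR. In the further livers it was 38.2% (26.7 to 50.8) and 80.0% in BN-Lx, and 77.0% and 56.4% (47.5 to 65.0) in SHR. How much of a 5p arm survives may differ between hairpins, so this share is not one of transcription.

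For mir-29b-1-5p the reads began at hairpin position 10 and not at position 15, where the RefSeq mature sequence uUUCAUAUggugguuuagauuu begins. In the six-tissue set 97.5% to 100% of its reads in a library had that start. With RefSeq's start the bases 2 to 8 would be UUCAUAU in place of CUGGUUU. The most frequent reads of the other 5p arms began where the RefSeq sequences do. For mir-29c-5p that start held only 42.9% and 45.5% of reads in BN-Lx and SHR brain, while 34.6% and 27.3% began 1 nt downstream.

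A 5p arm was rare beside its 3p arm. In the six-tissue set outside testis, mir-29a-5p made 0.0655% to 0.427% of the reads of its hairpin, with the highest shares in kidney (0.211% in BN-Lx and 0.427% in SHR). Among the 5p arms mir-29b-2-5p was the most abundant in brain, at a level of 0.575 and 0.583, against 0.155 and 0.153 in kidney, 0.122 and 0.178 in heart and 0.0304 to 0.0952 elsewhere. Brain was followed by kidney and heart, which overlapped, as for mir-29b-3p. The arm mir-29c-5p stood at a level of 0.0762 and 0.288 in BN-Lx and SHR kidney, 0.178 and 0.174 in brain, 0.202 and 0.0329 in heart, 0.0329 and 0.0824 in liver, 0.0317 and 0.0568 in testis, and 0.0642 and 0.00907 in spleen. In this order every pair of neighbouring tissues overlapped between the strains. The strains differed by 1.02 times in brain and by up to 7.08 times in spleen, where the values rest on 55 and 5 reads.

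The 5′ end of the 3p arm, which sets the seed, was uniform for mir-29a-3p and mir-29c-3p and less so for mir-29b-3p. Reads of mir-29b-3p that begin 1 nt upstream carry the bases UAGCACC at positions 2 to 8 in place of AGCACCA, shown in capitals.
mir-29b-3p, usual start: uAGCACCAuuugaaaucagugu
mir-29b-3p, upstream start: cUAGCACCauuugaaaucagugu
The upstream start made 3.90% (3.38 to 4.48) of mir-29b-3p reads in BN-Lx and 3.98% (3.35 to 4.68) in SHR spleen, and 23.9% (22.8 to 25.1) and 20.2% (19.1 to 21.3) in kidney. Heart lay at 13.1% and 17.8%, brain at 12.1% and 10.9%, testis at 11.8% and 11.4%, and liver at 7.27% and 11.9%. Spleen was below all other tissues of the set in both strains, beyond the counting intervals. Kidney was highest in both strains, beyond the counting intervals in BN-Lx, while in SHR its interval overlapped that of heart (16.6 to 19.1). For mir-29a-3p the upstream start made 0.487% to 2.78% of reads in the set, highest in SHR kidney, and for mir-29c-3p at most 0.442%, in BN-Lx testis, from 1.33 reads.

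**Figure D3:**
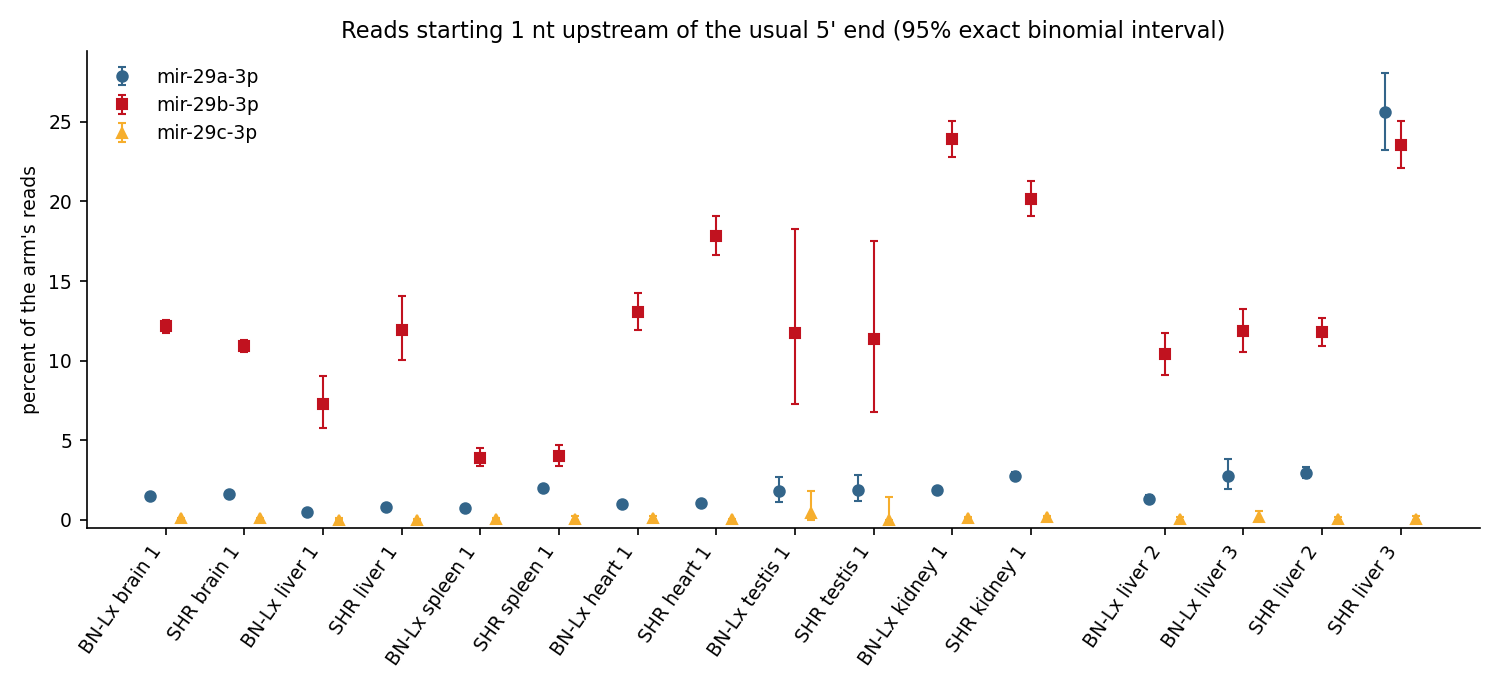
Percent of the reads of mir-29a-3p (circles), mir-29b-3p (squares, both hairpins) and mir-29c-3p (triangles) that begin 1 nt upstream of the usual 5′ end (y axis), by library, with exact 95% binomial intervals as bars. For mir-29b-3p the share is lowest in spleen (3.90% and 3.98%) and highest in kidney (23.9% and 20.2%) of the six-tissue set, and in SHR liver 3 mir-29a-3p reaches 25.6%.

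Strains were compared over the 12 libraries of the six-tissue set in edgeR with tissue and strain as terms. None of the 457 arms tested was called (0%), and neither was any of the 8 arms of the family, while 8 of the 457 arms had an unadjusted p under 0.05. DESeq2 called 0 arms, with 18 under 0.05 before adjustment. Each strain is 1 rat here, so the spread is that of the strain difference between tissues.

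The log2 difference of SHR from BN-Lx was −0.13 ± 0.19 (SE) for mir-29a-3p, −0.11 ± 0.22 for mir-29b-1-3p, −0.12 ± 0.22 for mir-29b-2-3p and 0.0020 ± 0.26 for mir-29c-3p, all with adjusted p = 0.996 in edgeR. The sign of the mir-29a-3p value turned without spleen (0.038) and that of mir-29c-3p without heart (−0.23), without brain (−0.059) or without the filter on low counts (−0.026). Among the 5p arms the estimates ran from −0.55 ± 0.54 for mir-29b-1-5p to 0.24 ± 0.33 for mir-29b-2-5p. The median of the 8 arms was −0.12, beside −0.01 for all arms. The 12 matrix-linked arms included 0 called arms.

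**Figure D4:**
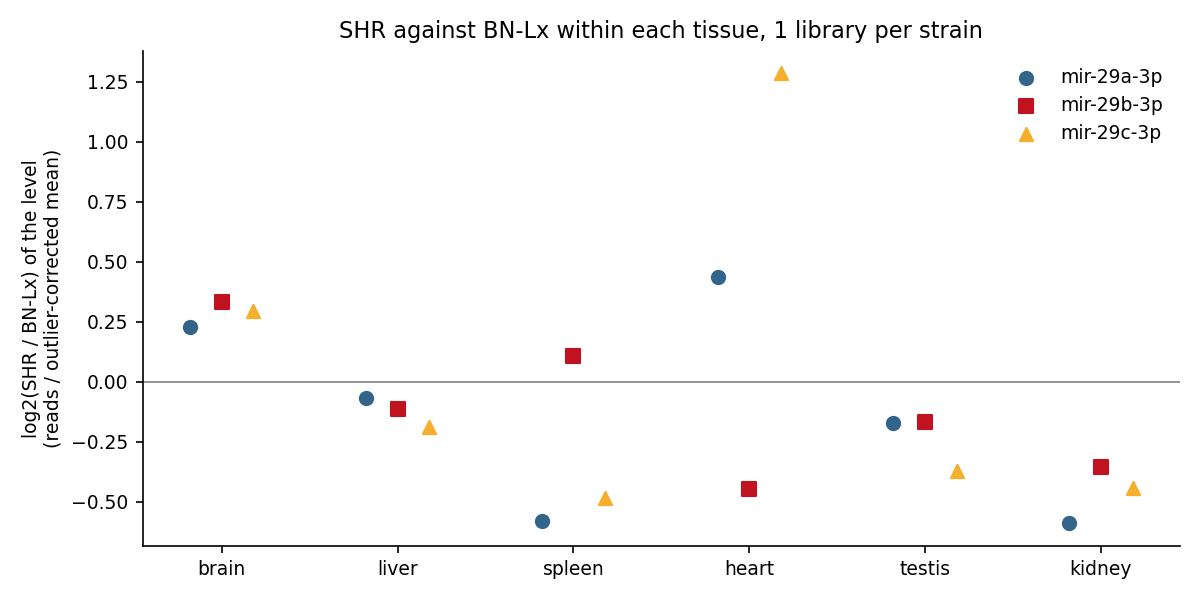
Log2 ratio of SHR to BN-Lx (y axis) of the level of mir-29a-3p, mir-29b-3p (both hairpins) and mir-29c-3p, as reads over the outlier-corrected mean, within each of the 6 tissues (x axis), 1 library per strain. Values scatter on both sides of 0, from −0.59 (mir-29a-3p in kidney) to 1.29 (mir-29c-3p in heart).

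Within tissues the strain differences went both ways. On the scale of the outlier-corrected mean, mir-29a-3p was higher in SHR by 0.23 in brain and 0.44 in heart on the log2 scale, and lower by −0.59 in kidney, −0.58 in spleen, −0.17 in testis and −0.07 in liver. In brain all 3 of the 3p arms were higher in SHR, by 0.23, 0.33 (mir-29b-3p) and 0.30 (mir-29c-3p). In heart mir-29b-3p stood at −0.45 while mir-29c-3p stood at 1.29. Shares of arms and hairpins, and for the 3p arms the share at the usual start and the mean read length, made 12 measures. They were tested in an exact sign-flip permutation test over the 6 tissues, two-sided, in which the smallest possible p is 0.03125. The smallest p was 0.0625 (adjusted p = 0.75 in this exact test), for the share of mir-29b-2 among 29b 5p reads, 82.2% in BN-Lx and 90.1% in SHR. No lower p was possible for that share, because its difference in testis was 0. The share of mir-29b-2 was higher in SHR in 5 of 6 tissues, by 7.92 ± 14.8 percentage points (SD, n = 6), and equal in testis, where 5 reads in all were seen. Without liver, where the shares rest on 23 and 30 reads, the difference was 1.94 points. The share of mir-29c-3p among mir-29a-3p and mir-29c-3p reads was 22.4% and 24.4%, with an exact p of 0.5 (adjusted p = 0.917, n = 6).

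The 6 livers differed in the family more within a strain than between the strains. In BN-Lx livers 1, 2 and 3, mir-29a-3p stood at 40339, 8508 and 1059 RPM, and in SHR livers 1, 2 and 3 at 38679, 3527 and 405. The livers of the six-tissue set were the high ones in both strains, and the further livers were lower by 4.74 and 38.1 times in BN-Lx and by 11.0 and 95.5 times in SHR. Its rank among all arms went from 6 to 14 and 67 in BN-Lx and from 5 to 31 and 88 in SHR. Over the 283 arms with a mean of at least 10 reads in the livers, 9.89%, 1.06%, 2.12% and 0.353% were at least as low against liver 1 of their strain in these 4 libraries, while the median arm stood at −0.39, −0.21, −0.36 and −0.43 on the log2 scale.

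For mir-29c-3p the levels in BN-Lx were 14010, 2582 and 1440 RPM, and those in SHR 12330, 1672 and 538. The fall from liver 1 was 5.43 to 22.9 times. The 29b hairpins did not share it. Summed over both, mir-29b-3p stood at 2233, 1554 and 1874 in the BN-Lx livers and at 2072, 1702 and 1005 in those of SHR, and for mir-29b-1-3p 36.7% to 52.3% of the 283 arms were at least as low. The 5p arm of the mir-29a hairpin did not share it either. Its level in BN-Lx was 40.6, 39.4 and 65.9 RPM, and that in SHR 49.9, 32.6 and 25.1. The arm mir-29c-5p stood at 27.8, 24.8 and 36.8 RPM in livers 1, 2 and 3 of BN-Lx. In those of SHR it stood at 69.8, 30.0 and 7.12 RPM, and in SHR liver 3 2.12% of the 283 arms were at least as low against liver 1. With the 3p arm of mir-29a down far more than its 5p arm, the 5p share rose. It went from 0.101% and 0.129% in liver 1 to 0.461% and 5.86% in the further BN-Lx livers and to 0.916% and 5.83% in those of SHR. The mir-29a-5p reads also differed in mean length, with 21.3 and 21.1 nt in livers 1 (19 and 25 reads) and 23.4 to 23.8 nt in the further livers.

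**Figure D5:**
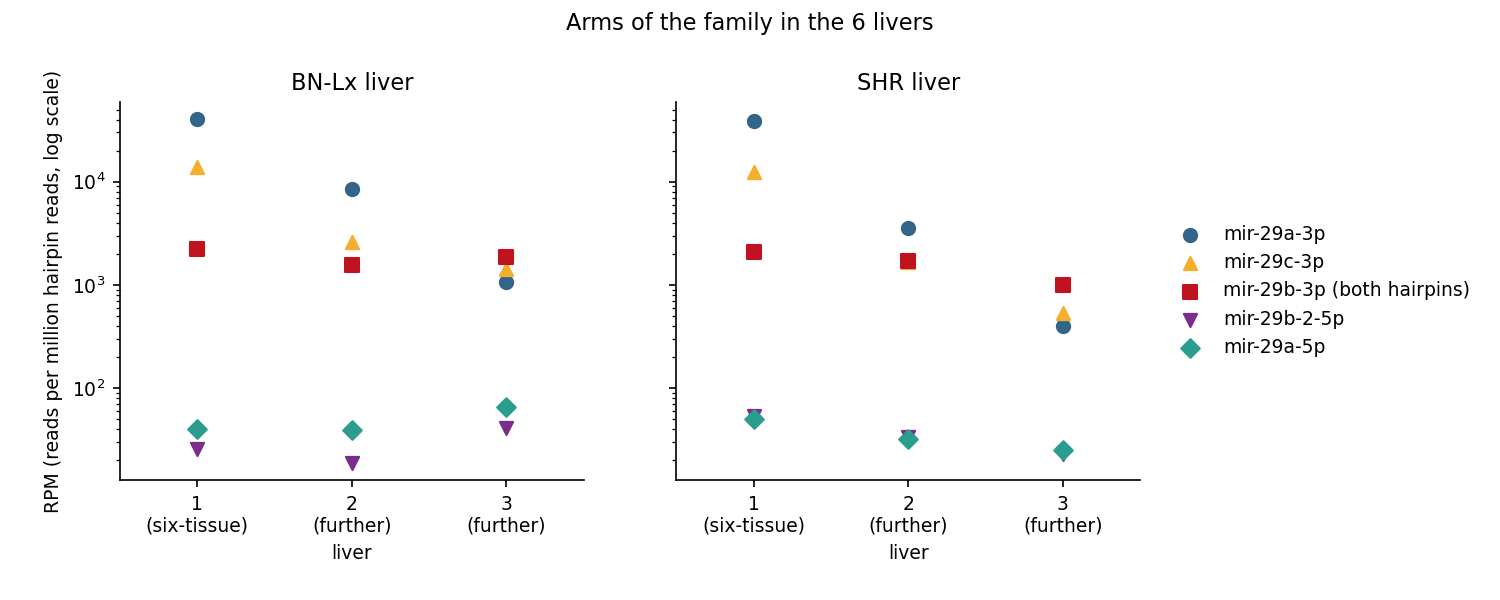
RPM (reads scaled to total hairpin reads, y axis, log scale) of mir-29a-3p, mir-29c-3p, mir-29b-3p (both hairpins), mir-29b-2-5p and mir-29a-5p in livers 1, 2 and 3 of BN-Lx (left) and SHR (right), where liver 1 belongs to the six-tissue set and livers 2 and 3 are the further livers. From liver 1 to liver 3 mir-29a-3p falls from 40339 to 1059 in BN-Lx and from 38679 to 405 in SHR, while mir-29b-3p stays between 1005 and 2233.

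The further livers also differed in read ends. In them 14.5% to 20.9% of mir-29a-3p reads and 18.6% to 25.6% of mir-29c-3p reads ended 1 nt beyond the usual 3′ end, against 6.14% and 7.42% (mir-29a-3p) and 5.84% and 6.68% (mir-29c-3p) in livers 1. For mir-29b-1-3p the shares were 3.36% to 6.93% and 7.14% and 9.23%, the other way round. The upstream 5′ start of mir-29a-3p made 25.6% (23.3 to 28.1) of its 1308 reads in SHR liver 3, against 0.487% to 2.95% in the other 5 livers, and that of mir-29b-3p made 23.6% there, against 7.27% to 11.9%. The hepatocyte marker mir-122-5p stood at 398590 to 456457 RPM in the further livers and 266223 and 322392 in livers 1. Rats, libraries and depth all differ between livers 1 and the further livers and cannot be told apart as a source of the lower mir-29a-3p and mir-29c-3p.

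The share of mir-29a-3p in the family followed. It was 71.3% and 72.9% in livers 1, 67.3% in BN-Lx liver 2 and 51.1% in SHR liver 2, and in livers 3 mir-29b-3p was the largest part with 42.9% in BN-Lx and 51.6% in SHR. The second place of liver after brain for mir-29a-3p, on the scale of the outlier-corrected mean, therefore rests on the livers of the six-tissue set. By RPM, mir-29a-3p in the further livers (405 to 8508) was below every library of the six-tissue set, whose lowest value was 35129 (BN-Lx heart).

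Between strains, edgeR on the 6 livers, with strain as the only term, called 0 of 271 arms (0%) and 0 of the 8 arms of the family. Before adjustment 6 of the 271 arms were under 0.05. This fit leaves out the pairing by liver number, which is taken up below. DESeq2 called 0 arms, with 9 under 0.05 before adjustment. The window test described by the study, which takes its spread from 41 arms of similar level and not from the rats, called 5 of 443 arms (1.13%) and 0 of the 8. Its p-values were one-sided, taken in the direction of each difference. With this approach the study itself reported strain differences in liver for arms of other families, and for mir-34a also by qRT-PCR. The log2 difference of SHR from BN-Lx was −0.51 ± 1.48 (SE) for mir-29a-3p and −0.54 ± 1.09 for mir-29c-3p, with errors far above those of mir-29b-1-3p (−0.29 ± 0.37) and mir-29b-2-3p (−0.30 ± 0.37). The 5p arms ran from −0.78 ± 0.73 for mir-29b-1-5p to 0.28 ± 0.48 for mir-29b-2-5p, and all 8 adjusted p-values were 0.995 in edgeR. The median of the 8 arms was −0.40, beside −0.08 for all arms.

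In the fit without the liver numbers, leaving out single livers turned the sign for mir-29a-3p and mir-29c-3p. Without BN-Lx liver 1 the estimates were 0.997 and 0.79, without SHR liver 3 they were 0.17 and 0.072, and without SHR liver 1 they were −2.77 and −2.11. With the six-tissue set as a term they were −0.99 and −0.70, and in the further livers alone −1.28 and −0.79. In all 3 pairs of livers with the same number, SHR had less mir-29a-3p and less mir-29c-3p than BN-Lx. With the number as a replicate block the estimates were −0.93 ± 0.34 (adjusted p = 0.525) and −0.77 ± 0.31 (adjusted p = 0.597) in edgeR, and neither was called. That fit called 0 of 302 arms, while 22 of the 302 arms and 2 of the 8 member arms were under 0.05 before adjustment. The 12 measures of shares and read ends were also put to an exact permutation test of 3 livers against 3. It leaves out the liver numbers, and its smallest possible p is 0.1. The share of mir-29b-3p reads at the usual start reached that p (adjusted p = 0.96), with 88.8% in BN-Lx and 82.8% in SHR.

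Arms with a pattern like that of mir-29a-3p were sought by the root mean square difference of centred log2 levels over the 12 libraries of the six-tissue set, among 378 arms of other families with a mean of at least 10 reads, as a description. The closest were mir-361-5p (0.448), let-7a-1-3p (0.459), let-7c-2-3p (0.459), mir-361-3p (0.521) and mir-195-5p (0.550), beside a median of 1.35 over all arms. Of the family, mir-29c-3p lay at 0.678, mir-29b-2-3p at 0.731 and mir-29b-1-3p at 0.737, and the arms mir-29b-2-5p, mir-29a-5p and mir-29c-5p at 1.05 to 1.17. The value of mir-29b-1-5p (0.571) is not comparable, since its mean level outside brain (0.0122) is near the 0.01 added before the log2. For mir-29c-3p the closest were let-7a-1-3p (0.591), let-7c-2-3p (0.592), mir-134-5p (0.699), mir-190-5p (0.701) and mir-433-3p (0.702), beside a median of 1.52, and mir-29a-3p came at 0.678. Arms of let-7a-1 and let-7c-2 can share reads, so their values are not separate. For mir-134-5p and mir-433-3p too the likeness was set by that added 0.01, since their mean levels outside brain were 0.0019 and 0.00025, and in brain they stood at 30.8 and 207 times those means. The mean of mir-190-5p outside brain (0.0159) was near that 0.01 as well, and brain stood at 2.53 times it. For mir-29a-3p and mir-29c-3p the corresponding ratios were 2.28 and 2.87, and for mir-361-5p 2.07.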

How the data were processed

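Per the study's methods, small RNA was sequenced on the SOLiD platform, the linker was trimmed, reads were mapped with SHRiMP to hairpins from rat assembly RGSC3.4 and miRBase, and perfect matches were kept. The testis libraries and an SHR liver library had more PCR cycles than the rest. The authors deposited, for each library, estimated counts of reads per start and end position on a hairpin, in which a read that fits several hairpins was divided between them, without normalization. Lists of piRNA clusters were not used. The positions were summed per arm. For each hairpin the read midpoint with most reads over all libraries marked the main arm. A read whose midpoint was over 20 nt away from it was assigned to the opposite arm. Levels were reads over the outlier-corrected mean (596 known arms, 3 highest removed) or RPM (reads scaled to the total hairpin reads of a library).

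Tests used the two-sided quasi-likelihood test of edgeR 4.0.16 on counts rounded to whole numbers, after filterByExpr and TMM scaling. Adjustment was by Benjamini-Hochberg with a threshold of 0.05, and SE was the log2 difference over the root of F. Exact two-sided permutation tests were used for shares and mean read lengths. Alternatives were DESeq2 1.42.0, other scalings, no filter, summed 29b hairpins, a replicate block, the window test (41 arms, one-sided) and leaving out libraries. R 4.3.3, limma 3.58.1, Python 3.11.15, numpy 2.4.6, pandas 2.3.3, scipy 1.17.1 and matplotlib 3.10.9 were used, and the tests were checked on simulated data.

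Named were the 8 arms of the family, the 5 arms most like mir-29a-3p and mir-29c-3p each, and up to 4 of the 12 matrix-linked arms. Members, lists and marker sets were chosen with earlier results of these data known. The labels number the livers. Deviations from the strain mean correlated at 0.61, 0.56 and 0.28 between livers of the same number over 283 arms, which was taken as pairing, although the numbers may mark no more than a shared library set.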

Additional observations from a re-analysis of the deposited data

How the results depend on the processing

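Under every other setting tried the strain comparisons called 0 member arms, as did leaving out single livers or tissues (0 to 0), and the fit with the replicate block of the paired livers also called 0 of 8 member arms and changed no other call. Member arms called in the tissue contrasts moved with the scaling. Brackets give the calls over all arms tested, of 373 unless another total is stated. Heart, at 2 arms (83), gave 3 with DESeq2 (129) and 1 with DESeq2's size factors in edgeR (83). It gave 0 with the outlier-corrected mean (80) or total reads (82). Kidney, at 1 (74), gave 4 with DESeq2 (105) or total reads (85) and 2 with the 29b hairpins summed (75 of 372). Liver, at 2 (73), gave 0 with DESeq2's size factors (75) or without the filter (72 of 619). It gave 1 with the hairpins summed (70 of 372) and 3 with total reads (106). Spleen, at 0 (100), gave 4 with DESeq2 (137) and 1 with each other scaling (95 or 96). Testis, at 5 (128), gave 3 with DESeq2 (152) and 1 with each other scaling (122 to 152). Leaving out each library gave 0 to 3 arms in heart, 0 to 2 in kidney, 0 to 1 in liver, 0 to 1 in spleen and 0 to 5 in testis. The split of all calls in liver went from 46 higher and 27 lower to 33 and 73 with total reads. The causes were not tested.

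Brain over the next tissue was 2.35 for mir-29a-3p and 2.31 for mir-29c-3p in RPM, 1.15 and 1.34 with TMM, and for mir-29c-3p 1.79 in BN-Lx and 1.76 in SHR alone. The sign turned for mir-29c-3p between strains over tissues without the filter (−0.026) and, for mir-29a-3p, in heart with the outlier-corrected mean (−0.11) and total reads (−0.062), in liver with total reads (−0.18) and in testis with total reads (0.0057). Leaving out a library or tissue turned signs within these ranges: strain in liver −2.77 to 0.997 for mir-29a-3p and −2.11 to 0.79 for mir-29c-3p, strain over tissues −0.23 to 0.038 and −0.23 to 0.18, heart −0.029 to 0.80 for mir-29a-3p, and the mir-29c-3p share of mir-29a-3p and mir-29c-3p reads between livers −7.39 to 13.3 percentage points. Depth limits the testis values most, where mir-29a-5p and mir-29b-1-5p had 0 reads.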
